A study of Drosophila melanogaster with 3 samples.

Results

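Chromosome 4 of Drosophila melanogaster, the smallest autosome, held 225 of the 30000 peaks of Trem in the pooled peak list of this chromatin immunoprecipitation sequencing (ChIP-seq) series. The peaks were chosen by position alone, from the chromosome named for each interval, and neither their strength nor their reproducibility entered the choice. Of these 225 peaks, 50 also stood in the shorter list made with the irreproducible discovery rate (IDR), a measure of how alike a peak ranks in separate libraries. The material was whole embryos 0 to 14 h old, males and females together, of a transgenic line that stably carries trem with GFP at the C terminus of the protein. The description names an anti-GFP antibody for the precipitation, whereas another label gives trem as the antibody. All 3 biological replicates belong to this one group, so that no genotype, stage or treatment could be compared; what follows compares chromosome 4 with the 5 long arms (2L, 2R, 3L, 3R and X) inside each list. A control is named for the peak calls, but neither it nor any library without the tag was analysed here.

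Trem is the product of trade embargo, a zinc finger gene best known for its requirement in the formation of meiotic double-strand breaks. Chromosome 4 does not normally undergo crossing over. Most of it is packaged with heterochromatin protein HP1a and is dotted with remnants of transposable elements such as INE-1 and 1360, yet its genes are transcribed and are marked by their own chromosomal protein, POF. Its genes include several regulators of development, among them eyeless, cubitus interruptus and pangolin.

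Of the 2 words marked here, GTTGGCAG stood in the window of the strongest peak, and the DNA replication-related element TATCGATA, a word common in promoters of housekeeping genes, stood in those of 5 weaker IDR peaks. The windows printed here reach 100 bp to each side of the summit, for the strongest peaks near Sox102F, pan, zfh2 and gw, for all 5 IDR peaks with TATCGATA, and for the strongest peak inside a transposable element, which lay near Arl4. Capitals mark TATCGATA and GTTGGCAG, each searched on both strands. Bases annotated as untranslated regions were removed from the windows, and the third strongest peak, which lay wholly in such a region of Cals, is not printed. The letters come from the RefSeq genome, build dm6, and the name before each is that of the gene with the nearest transcription start site (TSS).
Sox102F, chr4:835877-836077, plus strand: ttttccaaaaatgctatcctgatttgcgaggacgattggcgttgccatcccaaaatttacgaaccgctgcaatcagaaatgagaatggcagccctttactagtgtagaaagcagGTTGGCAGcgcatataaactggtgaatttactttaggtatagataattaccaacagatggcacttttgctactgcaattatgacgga
pan, chr4:68734-68934, plus strand: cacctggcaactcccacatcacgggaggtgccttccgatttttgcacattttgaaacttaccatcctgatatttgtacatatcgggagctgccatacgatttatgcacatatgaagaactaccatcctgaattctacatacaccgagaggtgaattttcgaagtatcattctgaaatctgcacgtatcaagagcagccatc
zfh2, chr4:497793-497993, plus strand: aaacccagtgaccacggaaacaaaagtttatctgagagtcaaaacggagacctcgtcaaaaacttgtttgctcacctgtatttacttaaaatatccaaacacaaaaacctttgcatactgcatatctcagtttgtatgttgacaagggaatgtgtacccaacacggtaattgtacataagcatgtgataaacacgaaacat
gw, chr4:659984-660151, plus strand: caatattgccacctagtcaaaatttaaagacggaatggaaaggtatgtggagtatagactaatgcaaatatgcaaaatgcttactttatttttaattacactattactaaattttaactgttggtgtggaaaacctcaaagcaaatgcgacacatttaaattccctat
Hcf, chr4:359799-359937, plus strand: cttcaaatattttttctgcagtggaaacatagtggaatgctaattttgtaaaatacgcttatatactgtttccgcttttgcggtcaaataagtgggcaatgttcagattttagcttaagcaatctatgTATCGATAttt
ey, chr4:696810-697010, plus strand: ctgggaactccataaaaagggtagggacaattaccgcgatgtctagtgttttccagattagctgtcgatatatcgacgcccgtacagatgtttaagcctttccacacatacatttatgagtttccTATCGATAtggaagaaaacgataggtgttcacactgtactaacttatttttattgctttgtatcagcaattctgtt
Cadps, chr4:1231778-1231882, plus strand: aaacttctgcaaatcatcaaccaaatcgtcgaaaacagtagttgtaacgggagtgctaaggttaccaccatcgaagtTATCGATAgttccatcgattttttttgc
RpS3A, chr4:63403-63603, plus strand: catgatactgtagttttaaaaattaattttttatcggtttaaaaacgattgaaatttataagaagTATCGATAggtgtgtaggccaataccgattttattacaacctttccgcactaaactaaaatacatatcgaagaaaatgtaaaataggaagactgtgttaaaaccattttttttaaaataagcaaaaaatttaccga
Actbeta, chr4:1084797-1084993, plus strand: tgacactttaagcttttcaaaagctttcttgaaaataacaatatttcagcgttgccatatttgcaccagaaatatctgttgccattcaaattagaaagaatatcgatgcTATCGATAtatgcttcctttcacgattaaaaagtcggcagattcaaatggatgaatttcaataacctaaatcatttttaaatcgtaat
Arl4, chr4:180881-181081, plus strand: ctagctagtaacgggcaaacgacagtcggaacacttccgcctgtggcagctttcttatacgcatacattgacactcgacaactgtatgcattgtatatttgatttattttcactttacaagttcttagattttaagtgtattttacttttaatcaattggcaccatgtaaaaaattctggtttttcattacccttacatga

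A pair of peaks stood far above the others. The strongest lay between genes, 1584 bp upstream of the nearest TSS of Sox102F, a gene for a Sox family transcription factor, with its summit at position 835977. Its signal value, the authors' measure of peak strength on the scale of each list, was 4975 in the pooled list, where it ranked 94 among all 30000 peaks. In the replicate lists its signal was 2463 in replicate 1, 1225 in replicate 2 and 1306 in replicate 3, with ranks of 75, 115 and 109. The second lay 492 bp upstream of a TSS of pan, which encodes the TCF protein that binds DNA at the end of the Wnt pathway. This pan peak had a pooled signal of 2675 and rank 156, and its replicate signals of 1373, 631.8 and 711.1 gave ranks 148, 175 and 162. Both peaks were thus among the 200 strongest of every list. The third peak, in the 3' untranslated region of the calsyntenin gene Cals, had a pooled signal of 615.6 and rank 789.

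**Figure D1:**
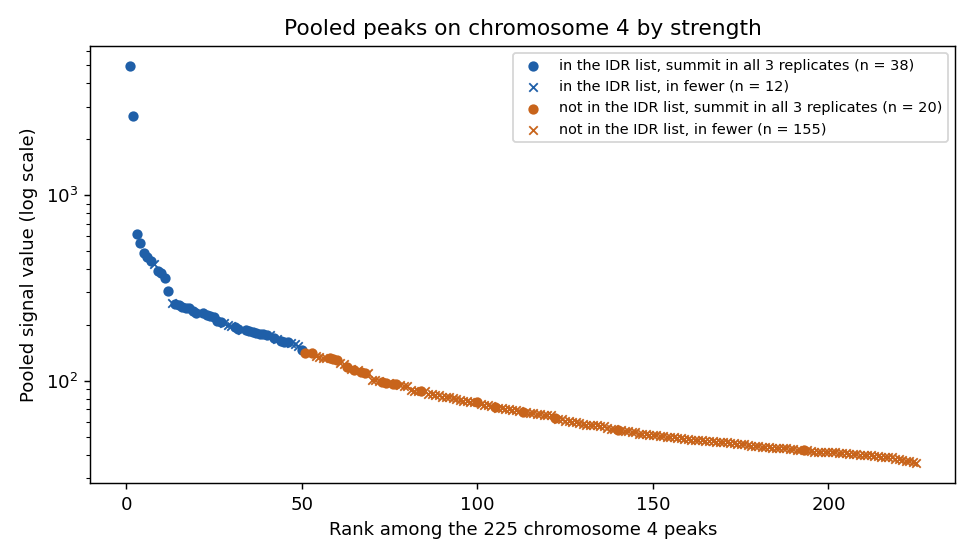
Pooled signal value (log scale) of the 225 chromosome 4 peaks against their rank among themselves, with colour for membership of the IDR list and marker for a summit within 100 bp in all 3 replicates. The peaks near Sox102F and pan, at 4975 and 2675, stand apart from the rest, which run down to 35.9.

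Among the next peaks, some had a regulator of development as the gene with the nearest TSS. A peak 3917 bp upstream of zfh2, which encodes a zinc finger homeodomain protein, had a pooled signal of 554.6, with ranks of 2325, 1206 and 468 in replicates 1, 2 and 3. The peak of gw, whose product acts in silencing by microRNAs, lay 68 bp upstream of its TSS at 485.0 and ranked 1203, 1383 and 1918 in the replicates. An intronic peak of Asator, 583 bp upstream of its nearest TSS, followed at 462.4. PlexA, a receptor for semaphorins in axon guidance, had a peak 164 bp upstream at 443.6. The eye regulator ey, a Pax6 gene, had one 33 bp upstream at 378.8 and a weaker one 779 bp upstream at 224.5, the window with TATCGATA printed above. Of the 20 strongest peaks, 18 had a summit within 100 bp in all 3 replicates. The exceptions were a second pan summit at 69052, with a pooled signal of 424.5, and the Hcf peak at 263.9. The first had none in replicate 1 and the Hcf peak none in replicate 2. That pan summit lay in the same interval as the strongest pan peak, which ranked 148 in replicate 1.

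The position of these 20 peaks relative to genes was mixed. Far from a TSS were summits 19079 bp downstream of the start of lgs, whose product binds beta-catenin in the Wnt pathway, at 391.8, and 8951 bp upstream of dati, a zinc finger gene, at 246.9. The Ski/Sno family gene fuss had 2 distant peaks, 1536 and 4474 bp upstream, at 357.0 and 254.5, but its own promoter held only a peak of 69.2. A peak at 879183 with a signal of 237.4 lay in an intron of unc-13, a gene of synaptic vesicle priming, although the nearest TSS was that of Gyf, 12158 bp away. By contrast the ribosomal protein gene RpS3A, at 257.6, and the genes Zyx and apolpp, which lie on opposite strands and shared a summit at 250.1, had peaks within 50 bp of a TSS. Zyx encodes the adhesion protein zyxin and apolpp the precursor of the main lipid carrier of the blood.

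**Figure D2:**
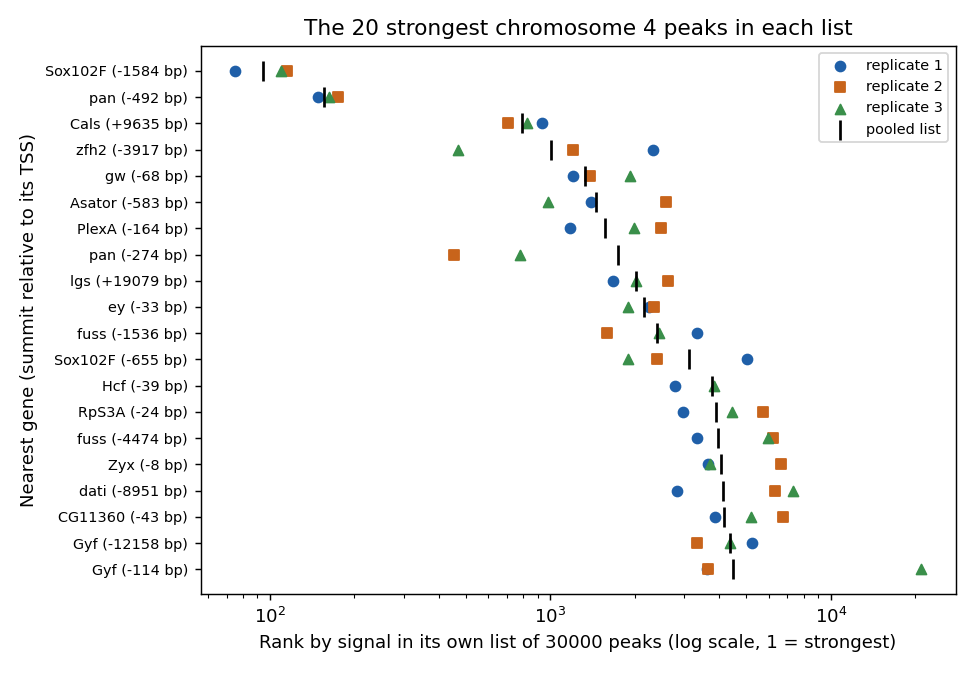
Rank by signal (log scale, 1 is the strongest of 30000) of the 20 strongest chromosome 4 peaks in each replicate list and in the pooled list, named by nearest gene and by the distance from its TSS, negative when upstream. The strongest peak near Sox102F and the strongest near pan keep ranks of 75 to 175 in every list, while the weaker peaks of the same genes rank lower and the Gyf promoter peak ranks 3619, 3661 and 21023 in replicates 1, 2 and 3.

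The share of chromosome 4 peaks in the IDR list was near that of the whole series. The 50 IDR peaks made up 22.2% of the 225 peaks (95% Wilson interval 17.3 to 28.1), against 24.9% of all pooled peaks in the series and 24.9% of the 29774 on the long arms. Such intervals cover counting error only, and peaks of one list are not independent replicates. The last peak inside the list was that of Ank, an ankyrin gene, with a signal of 146.2 and rank 7392, and the first outside it was an intronic peak of Asator, a kinase gene, at 141.4 and rank 7608. The IDR list consisted of exactly the strongest pooled peaks down to one rank, so these values fall on either side of a limit on strength. Within the IDR list, chromosome 4 peaks sat lower, with a median signal of 214.8 against 267.0 on the arms. The median was 249.7 on X, and 221.3 for the 7 IDR peaks in the 1 Mb beside the centromere on each long arm. Only 12 of the 50 on chromosome 4, or 24%, ranked above the median of the whole IDR list, compared with 50.2% of the IDR peaks on the arms.

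Ranks in the replicate lists gave the same order among strong peaks. With 0 for the strongest and 100 for the weakest peak of a list, the median chromosome 4 peak among the strongest peaks of each replicate list, as many as the IDR list holds, was at percentile 15.3, 17.2 and 16.8 in replicates 1, 2 and 3, against 12.4 in each replicate on the arms. The difference, chromosome 4 minus arms, averaged 4.0 ± 1.04 percentile points (SD, n = 3) with the same sign in 3 of 3 replicates. A two-sided exact sign-flip permutation test over the 3 replicates gave p = 0.25, the smallest it can give, and 0.417 after Benjamini-Hochberg adjustment over the 15 comparisons of this kind, so no difference here can pass 0.05. In the whole lists the medians were 51.4, 49.2 and 52.8 on chromosome 4 and 49.98, 50.01 and 49.97 on the arms, a difference within the spread of the replicates (exact p = 0.5).

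Not all peaks recurred in the separate libraries. Replicate 1 listed 299 peaks on chromosome 4, replicate 2 listed 232 and replicate 3 listed 251. A summit within 100 bp of a pooled summit was found for 143 of the 225 pooled peaks in replicate 1 (63.6%), for 115 in replicate 2 (51.1%) and for 134 in replicate 3 (59.6%). On the arms these shares were 63.0%, 57.7% and 59.0%, so that the replicates differed in the sign of the difference (exact p = 1). All 3 replicates had a summit for 58 of the 225 peaks, or 25.8%, against 31.0% of all pooled peaks in the series. A further 73 were found in 2 replicates, 72 in 1 and 22 in none. Among IDR peaks 38 of 50 (76%; 62.6 to 85.7) had a summit in every replicate, compared with 86.2% on the arms, and the pooled peak of Rad23, a shuttle protein of the proteasome, at 188.4 had one in replicate 1 alone. Outside the IDR list the share was 20 of 175.

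How dense the peaks were depended on the measure. Replicates 1, 2 and 3 had 222, 172 and 186 peaks per Mb on chromosome 4, a mean of 193 ± 25.6, against 224 ± 0.262 per Mb on the arms (SD, n = 3 each). Replicate 1 lay close to the arms and the other two well below. The spread on the arms is small because every list has 30000 peaks and the arms hold nearly all of them. Per protein-coding gene the order was the opposite, with 3.74, 2.90 and 3.14 peaks on chromosome 4 against 2.14, 2.15 and 2.15 on the arms, since chromosome 4 has 59.3 coding genes per Mb and the arms have 104.6. Among the strongest peaks, again as many as the IDR list holds, the values were 41.0 ± 0.428 per Mb on chromosome 4 and 56.0 ± 0.00436 on the arms, lower in 3 of 3 replicates, and 0.692 ± 0.00722 per gene on chromosome 4 and 0.535 ± 4.16e-05 on the arms, higher in 3 of 3. Each of these 4 differences had the smallest possible exact p, 0.25 (0.417 adjusted).

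**Figure D3:**
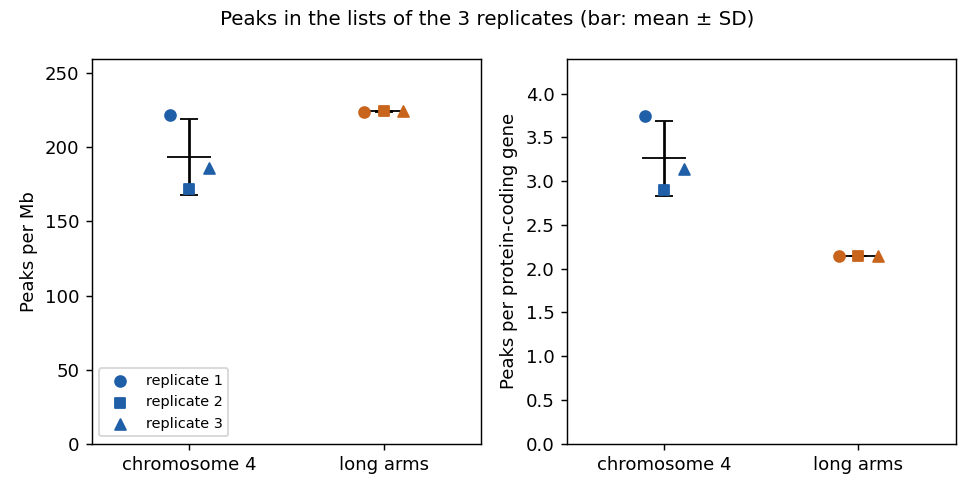
Peaks per Mb (left) and per protein-coding gene (right) in the lists of 30000 peaks of each replicate, on chromosome 4 and on the long arms, with the mean and SD of 3 replicates as bars. Chromosome 4 lies at 172 to 222 per Mb, below the arms at 224 to 225, and at 2.90 to 3.74 per gene, above the arms at 2.14 to 2.15.

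Per Mb, chromosome 4 was far richer in peaks than the heterochromatin next to the other centromeres, where peaks per gene were not computed. The pooled list had 167 peaks per Mb on chromosome 4, against 16.4 per Mb in the 1 Mb beside the centromere on each long arm, where 82 peaks lay, 7 of them in the IDR list. The X chromosome had 224 per Mb. In replicates 1, 2 and 3 the X had 212, 207 and 207 per Mb, against 222, 172 and 186 on chromosome 4. Beside the centromeres the replicate lists had 28.6, 9.6 and 8.6 per Mb. When the arms were cut into 95 windows of the length of chromosome 4, their pooled peaks ranged from 1 to 597 with a median of 340, and 17 windows held fewer than the 225 of chromosome 4. For IDR peaks the windows held 0 to 138 with a median of 84, and 16 held fewer than 50.

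Along the chromosome the peaks were uneven. The first summit was at position 42377 and the last at 1234881, leaving 113250 bp without a peak at the right end, where no coding gene starts and where 95.4% of the bases of the last stretch, from 1300 kb on, are transposable elements. Between 400 and 500 kb lay 41 peaks, 9 of them in the IDR list, whereas 200 to 300 kb held 5 and no IDR peak although 8 coding genes start there. The widest gap, 66591 bp from 721957 to 788548, covers bt, the gene of the giant muscle protein projectin. Asator, dati and zfh2 each had 13 peaks for which theirs was the nearest TSS, and ci, the transcription factor of the Hedgehog pathway, had 11. Some intervals overlapped: the 225 intervals merged into 184 blocks, 39 of which held more than 1 summit, with 80 peaks in all. The median interval was 410 bp wide on chromosome 4 and on the arms, and intervals of that width overlap when their summits lie closer than that. Blocks were not counted on the arms, so whether such overlap is more common on chromosome 4 was not tested. Neighbouring summits were a median of 1153 bp apart on chromosome 4, against 1487 bp on the arms, and never closer than 199 bp.

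The IDR peaks of chromosome 4 lay mainly at promoters. Of their 50 summits, 34 were within 500 bp of a coding TSS (68%; 54.2 to 79.2), 12 were intergenic, 3 were in introns and 1 was in a 3' untranslated region. On the arms 62.7% of IDR summits were at promoters and 21.6% in introns, against 6% in introns on chromosome 4 (2.06 to 16.2). The chromosome 4 promoter summits were a median of 72 bp upstream of the TSS, and 29 of the 34 (85.3%) were on the upstream side; on the arms the median was 73 bp and the share 84.3%. Over all 225 peaks 91 were at promoters (40.4%), 52 in introns (23.1%), 50 intergenic (22.2%) and 12 in coding sequence (5.33%). On the arms 32.3% were at promoters, 36.7% in introns, 20.5% intergenic and 3.93% in coding sequence. In the 1 Mb beside the centromere on each arm 33 of 82 were at promoters (40.2%), a share near that of chromosome 4. The IDR list held 0 of the 12 coding summits on chromosome 4 and 11 of the 1171 on the arms.

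**Figure D4:**
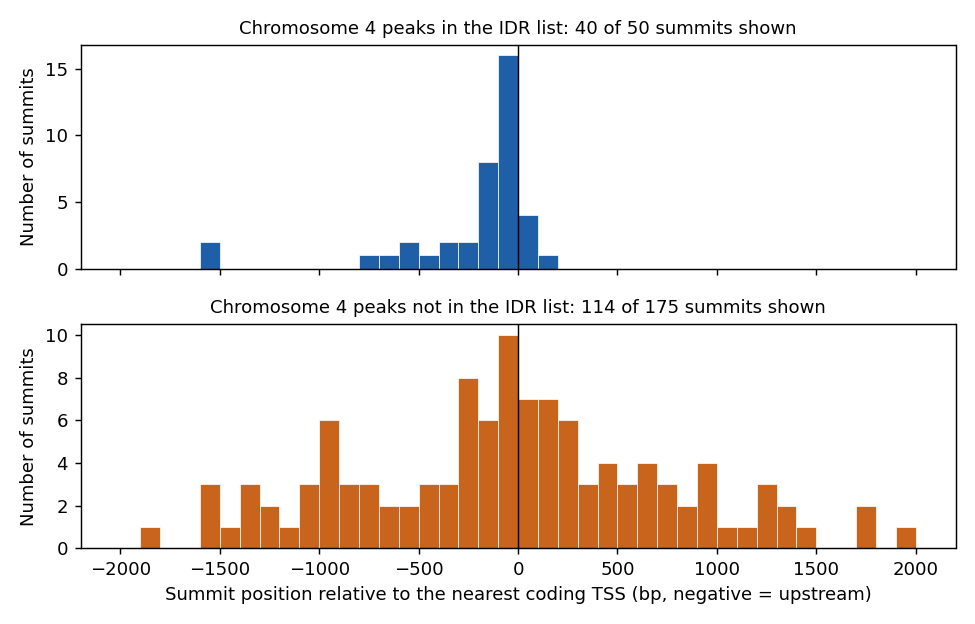
Number of chromosome 4 summits by position relative to the nearest coding TSS (bp, negative is upstream, bins of 100 bp), for peaks in the IDR list (top) and the others (bottom), with 2000 bp shown on each side. The IDR summits gather just upstream of the TSS, with 20 of 50 within 100 bp, while the others spread over the whole range.

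Across replicates the promoter share did not separate chromosome 4 from the arms. It was 34.4%, 32.8% and 37.5% of all summits on chromosome 4 in replicates 1, 2 and 3, against 30.6%, 33.8% and 33.0% on the arms, higher in 2 of 3 (mean difference 2.42 ± 3.01 percentage points, exact p = 0.5). Among the strongest peaks it was 69.1%, 58.2% and 60.7% on chromosome 4 and 59.6%, 67.1% and 65.1% on the arms, higher only in replicate 1 (exact p = 1). Fewer bases of chromosome 4 lie that near a coding TSS, 8.55% against 11.5% on the arms. Relative to those bases the promoter share was 4.08 ± 0.278-fold on chromosome 4 and 2.83 ± 0.143-fold on the arms (SD, n = 3 each), higher in 3 of 3 replicates (exact p = 0.25, adjusted 0.417).

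A larger share of peaks lay in transposable elements on chromosome 4 than on the arms, and these peaks were weak. Annotated elements make up 24.8% of the bases of chromosome 4 and 5.22% of those of the arms. In replicates 1, 2 and 3, 12.0%, 10.3% and 9.16% of chromosome 4 summits lay in one, against 0.630%, 0.373% and 0.390% of summits on the arms. In the 1 Mb beside the centromere on each arm the shares were 4.90%, 2.08% and 6.98% (7, 1 and 3 summits). These were above the arms as a whole and below chromosome 4 in each replicate. Chromosome 4 and the arms did not overlap, and their mean difference was 10.1 ± 1.32 percentage points (exact p = 0.25, adjusted 0.417). Set against the bases they occupy, elements held fewer summits than their share in both. The ratio was 0.424 ± 0.0584 on chromosome 4 and 0.0890 ± 0.0275 on the arms, higher on chromosome 4 in 3 of 3 replicates (exact p = 0.25). These ratios count all bases, including stretches with few or no peaks, so they also depend on where elements lie. Between the first and last pooled summit of chromosome 4, elements make up 19.8% of the bases.

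In the pooled list 21 of the 225 chromosome 4 summits lay in an element (9.33%; 6.19 to 13.8), all of them among the 175 outside the IDR list and none among the 50 inside it, which allows a share of up to 7.13% there by the Wilson interval. On the arms 14 of 7427 IDR summits (0.189%) lay in an element, a share at which 50 peaks are too few to show a difference. The strongest was the peak near Arl4 printed above, in a 1360 element, with a signal of 123.4 and rank 8576. INE-1 copies, the most numerous on the chromosome with 344 annotated, held 13 of the summits, and 1360, with 60 annotated, held 7, of which 2 lay where both are annotated. Cr1a held 2 and FB 1. Of the 21, 10 had a summit within 100 bp in 2 replicates, 8 in 1, 3 in none and 0 in all 3, beside 20 of all 175 chromosome 4 peaks outside the IDR list (11.4%) with one in all 3. Among the strongest peaks of each replicate the element share was 0%, 3.64% and 1.79% on chromosome 4 and 0.283%, 0.216% and 0.229% on the arms (exact p = 0.5).

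**Figure D5:**
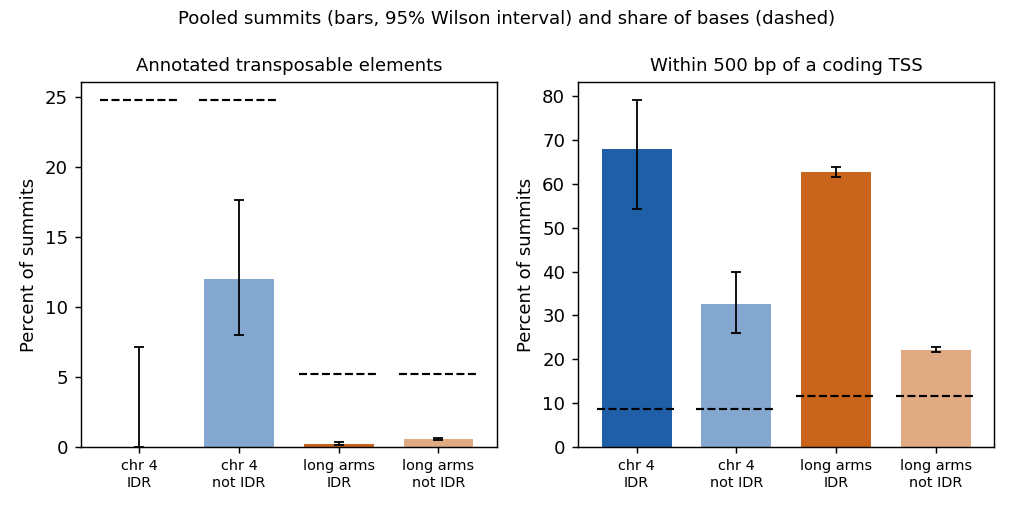
Percent of pooled summits in annotated transposable elements (left) and within 500 bp of a coding TSS (right), for chromosome 4 and long arm peaks in and outside the IDR list, as bars with 95% Wilson intervals. Dashed lines give the percent of bases of that class, 24.8 and 5.22 for elements and 8.55 and 11.5 near a TSS, and the element bar is 0 for the 50 chromosome 4 IDR peaks.

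The share of genes with an IDR peak was near that of the whole genome. An IDR summit lay within 500 bp of a TSS for 33 of its 80 coding genes, or 41.3% (31.1 to 52.2), compared with 41.7% of all coding genes and 41.7% of those on the arms. The strongest peaks of replicates 1, 2 and 3 reached 37, 29 and 31 of the 80 genes, which is 46.3%, 36.3% and 38.8%, against 40.6%, 41.5% and 40.5% on the arms. The sign of that difference varied (mean -0.45 ± 5.54 percentage points, exact p = 1). All 3 replicates reached 17 of the genes and none of them reached 35. Counting every pooled peak, 58 of 80 genes had one (72.5%; 61.9 to 81.1), against 58.8% on the arms, and the whole replicate lists gave 80%, 61.3% and 71.3% on chromosome 4 and 58.2%, 58.0% and 58.4% on the arms, higher in 3 of 3 (exact p = 0.25, adjusted 0.417). Coding genes of chromosome 4 are longer, with a median of 10090 bp against 2156 bp on the arms, and have more start sites, 1.78 against 1.40 per gene.

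Of the 19 transcription factors and cofactors listed for chromosome 4, 9 had an IDR summit near a TSS (47.4%). This was near the share of all 80 coding genes of the chromosome, 33 (41.3%). The 9 were pan (2675), ey (378.8), the cofactor Hcf (263.9), CG11360 (246.0), Sox102F (231.5 at its own promoter), lgs (183.3), ci (179.8), the Polycomb DNA-binding factor pho (161.4) and zfh2 (159.9). The pooled signal of the strongest such peak is in parentheses. A weaker pooled peak was present at 7 more: the Mediator subunit gene MED26 at 141.1, onecut at 96.4, dati at 71.4, fuss at 69.2, Mitf at 44.8, Pur-alpha at 41.1 and the forkhead gene fd102C at 38.8. No pooled summit lay within 500 bp of a TSS of NfI, toy or sv, so that ey had a peak of 378.8 and the other Pax6 gene, toy, none.

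Among 15 listed genes of signalling, 9 had an IDR summit (60%), beside 33 of all 80 coding genes of the chromosome (41.3%). With so few genes this difference was not tested. Both plexins were among the 9, PlexA at 443.6 and PlexB at 208.9. So were the lipid kinase PIP4K at 220.6, the small GTPase gene Arf4 at 204.0 and the calcium-dependent kinase CaMKII at 198.8. Dyrk3 stood at 179.5, the receptor Eph at 177.1, the activin ligand Actbeta at 169.0 and the Asator promoter at 153.8. Arl4 at 129.7, Slip1 at 125.3, the ligand myo at 76.6 and Ephrin at 38.0 had only weaker peaks. That of Slip1 lay 431 bp upstream of its TSS and was nearest to the TSS of CG46466. Crk, an adaptor of receptor signalling, and mav, a ligand of the TGF-beta family, had none.

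As drawn, the list of translation, mitochondria and turnover was mostly reached (66.7%), and that of synapse and transport mostly not (16.7%). In the list of translation, mitochondria and turnover 6 of 9 had an IDR summit: gw at 485.0, RpS3A at 257.6, Gyf at 232.6, the complex I gene ND-49 at 225.6, the ATP synthase gene ATPsynbeta at 196.0 and Rad23 at 188.4. Tdg had a pooled peak of 41.1, the same summit as that given for Pur-alpha, and eIF4G1 and CG1909 had none. In the list of synapse and transport 2 of 12 had an IDR summit, the zinc transporter gene Zip102B at 194.7 and Cadps, which acts in release from dense-core vesicles, at 188.1. Of the other 10, mGluR and Kif3C had weaker peaks of 100.6 and 35.9, and JYalpha, yellow-h, dpr7, Syt7, PMCA, Gat, Ekar and unc-13 had none near a TSS. Ank and Zyx had IDR summits and bt had none. These lists are small and loosely drawn, with yellow-h and Tdg as doubtful members. They leave out 21 of the 80 genes, CaMKI among them, and were not tested against each other. Of those 21, 4 had an IDR summit (19.0%). Over all 80 genes the counts were 33 with an IDR summit (41.3%), 25 with a weaker peak and 22 with none.

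TATCGATA occurred within 100 bp of 5 of the 50 IDR summits (10%) and of 4 of the 175 other chromosome 4 summits (2.29%). On the arms it occurred at 9.09% of IDR summits, and among all windows of the same length it was found in 1.98% of those on chromosome 4 and in 0.55% of those on the arms. The IDR holders were the peaks printed above under Hcf, ey, Cadps, RpS3A and Actbeta, with signals of 169.0 to 263.9. That of RpS3A was not its promoter peak (257.6) but an intergenic peak of 185.2, 3704 bp downstream of the TSS. In each of the 5 windows TATCGATA lay within 50 bp of the summit. Its core CGATA, which overlaps it, was present at 25 of 50 IDR summits (50%) and at 28.6% of the others, against 38.7% of IDR summits on the arms and 24.9% of all chromosome 4 windows.

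GTTGGCAG, a word chosen after the strongest peaks of the series had been seen, was present in 125 of the 198 peaks on the arms that rank among the 200 strongest (63.1%). On chromosome 4 it occurred at 1 of the 225 summits (0.444%), the Sox102F peak, against 1.41% of all summits on the arms, and it was in 0.453% of all chromosome 4 windows. Among IDR summits this is 1 of 50 (2%) on chromosome 4, against 2.80% on the arms. The pan window, the other chromosome 4 peak among the 200 strongest, did not hold it. The chromosome has 30 copies of the word, 22.3 per Mb, against 45.8 per Mb on the arms. A pooled summit lay within 100 bp of 1 of the 30, the copy near Sox102F (3.33%), compared with 442 of the 6076 copies on the arms (7.27%). With IDR summits the shares were 3.33% on chromosome 4 and 3.55% on the arms, and in the list of replicate 1 they were 6.67% (2 copies) on chromosome 4 and 7.09% on the arms. With 1 or 2 copies no difference could be told at this number.

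Of the remaining words, GGTCACAC, the start of a core promoter element bound by M1BP, was at 2 of 50 IDR summits (4%), against 7.03% on the arms and 0.302% of all chromosome 4 windows. TATAAA was at 38% of IDR summits and in 38.4% of all chromosome 4 windows, and GAGAG at 22% and in 17.4%. CAGCNCT was at 8% of IDR summits and in 5.39% of windows, CAGGTAG at 1 IDR summit (2%) and in 1.21% of windows, and CACGTG at 0 IDR summits and in 1.33% of windows. The windows around IDR summits had a median GC content of 32.8% on chromosome 4 and 34.8% on the arms, beside 35.2% of all bases of chromosome 4 and 42.2% of those of the arms. A match is only a description of the letters in these windows.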

How the data were processed

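Trem ChIP-seq peaks of 3 biological replicates (1 group) were analysed. Per the file lists deposited with the samples, peaks on dm6 were called per library against a control, then on all 3 libraries pooled, and the IDR list was derived from these. The aligner, peak caller and IDR settings were "not given in the sources used here". In the deposited lists the authors give each peak a signal value, comparable within a list only, and a −log10 q-value, which is tied among strong peaks and was not used for ranking. Read counts were not analysed here, so depth is unknown.

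Peaks were taken from chromosome 4 of the pooled list. Summits (start plus summit offset) within 100 bp counted as shared. Genes came from Ensembl release 115 and transposable elements and sequence from RefSeq, both in dm6 coordinates, and all peaks end within their chromosomes. Each summit got the first class that applied of promoter (coding TSS at most 500 bp away), untranslated, coding, intron, other gene and intergenic. Replicates were the unit of every test (two-sided exact sign-flip, 15 comparisons, Benjamini-Hochberg adjustment), and p-values describe these samples only. With 3 replicates p was 0.25 whenever all 3 differences had the same sign, whatever their spread. The 2 comparisons of summit share with base share were added after the data had been seen. The functions used were tested on simulated data. Gene lists had 61 entries, of which 57 matched by symbol and 2 by an older symbol, 1 repeated another gene and 1 was not on chromosome 4. Named genes were the nearest to the 20 strongest peaks, the members of the lists, and those next to the IDR limit; others, such as those leading a count or holding a word, were named after their values were seen. The peaks and lists were chosen with earlier results of these data known. Alternatives were other windows, tolerances, list lengths and comparison regions, and each replicate left out. Analyses used python 3.11.15, pandas 2.3.3, numpy 2.4.6, scipy 1.17.1, statsmodels 0.14.6 and matplotlib 3.10.9.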

Additional observations from a re-analysis of the deposited data

How the results depend on the processing

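No paired analysis was possible because the samples form a single group, with no second group to pair; chromosome 4 and the arms were set against each other within each replicate throughout. The lower peak density of chromosome 4 (-31.0 per Mb against the arms) had the other sign against the 1 Mb beside each centromere (177.8) and, in an alternative chosen after seeing the data, per coding gene (1.11). Against X alone the density difference was -15.5 per Mb, with the other sign in replicate 1 (exact sign-flip p = 0.5). The rank difference (1.14 percentile points) turned to -4.57 against those centromeric regions. The promoter difference (2.42 percentage points) was -0.0525 with a TSS window of 250 bp. The gene difference (-0.45) was 0.56 at 250 bp and 4.19 at 1000 bp, and leaving out 1 replicate gave -3.49 to 1.93, with 1.93 without replicate 2 and 0.20 without replicate 3. For these the cause was not tested.

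Shares moved with their definition. The IDR share of 22.2% was 65.5% among peaks found in all replicates and 11.1% to 14.2% when IDR peaks also had to stand among the strongest peaks of 2 replicates. The share found in every replicate (25.8%) was 11.1% at 50 bp, 38.7% at 200 bp, 53.8% by overlap, 9.33% among the strongest peaks, and 34.2% to 39.6% with 1 replicate left out. The promoter share (40.4%) was 28.9% at 250 bp, 56.4% at 1000 bp and 68% of IDR peaks. The share of genes (41.3%) was 72.5% with all pooled peaks, 5% with the stronger part of the IDR list, down to its median rank, and 18.8% to 26.3% under the requirement of 2 replicates. CGATA was at 36% within 50 bp and 70% within 200 bp. The element difference (10.1 percentage points) was 9.37 to 10.7 with 1 replicate left out and fell to 1.56 among the strongest peaks, where replicate 1 had the other sign; these alternatives were chosen after seeing the data. With 3 replicates no test could pass 0.05, and without read counts the weaker peaks cannot be judged by depth.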
